A study of Homo sapiens with 12 samples.

Results

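MDA-MB-231 is a human triple-negative breast cancer line of mesenchymal type. The comparison described here is that of the miRNAs inside cells of a RAB27A knockdown line with those inside cells of its control line, and it uses 4 of the 12 small RNA libraries of the study, 2 per line. The knockdown line carries a short hairpin RNA against RAB27A, delivered by lentivirus and stably kept, and the control line carries the vector with no hairpin. Both lines were grown with 10% fetal bovine serum and harvested together with the vesicles they had shed over 24 h without serum, in medium that held 1% bovine serum albumin. Each line is a single derived line made with a single hairpin or vector, so what differs between the lines for any other reason cannot be told apart from the knockdown. RAB27A encodes a protein and its mRNA is not read by these libraries, so the depth of the knockdown was not measured here. The labels number the replicates 1 and 2 and do not tell if these were grown separately, and p-values therefore measure the spread between these libraries, which may be technical. Values are also given, where they help, for cells of another derived line, whose MIR122 locus had been cut with CRISPR guides, and for the extracellular vesicles (EVs) of the knockdown and control lines.

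RAB27A is a small GTPase that tethers multivesicular bodies at the plasma membrane, and cells that lack it release fewer exosomes. A miRNA is cut from a hairpin in a longer primary transcript, and either arm of the hairpin (named 5p and 3p) can be loaded into an Argonaute protein. Hairpins that lie close together are often cut from a shared transcript and are then called a cluster. Bases 2 to 8 of the mature miRNA, the seed, pair with target mRNAs, so miRNAs with the same seed are grouped as a family. In vertebrates several clusters exist as related copies on different chromosomes, and copies can give nearly identical mature miRNAs from separately controlled genes.

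The sequences below are those on which the results turn, near-identical relatives that were compared and miRNAs with large changes. They are mature miRNAs from RefSeq (GRCh38.p14), written 5′ to 3′ with the seed in capitals. The first 2 share a seed and come from chromosome 21 and chromosome 11.
miR-99a-5p: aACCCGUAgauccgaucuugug
miR-100-5p: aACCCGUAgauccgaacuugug
let-7c-5p, from the same chromosome 21 cluster as miR-99a-5p, stands beside let-7a-5p, which has 3 gene copies on other chromosomes.
let-7c-5p: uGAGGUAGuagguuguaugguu
let-7a-5p: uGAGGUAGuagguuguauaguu
miR-106a-5p, miR-20b-5p and miR-363-3p come from the X chromosome, and miR-17-5p from chromosome 13. miR-92a-3p has a gene copy on each of these chromosomes.
miR-106a-5p: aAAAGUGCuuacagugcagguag
miR-20b-5p: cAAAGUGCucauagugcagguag
miR-17-5p: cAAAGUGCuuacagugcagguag
miR-363-3p: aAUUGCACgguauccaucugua
miR-92a-3p: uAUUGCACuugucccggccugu
The next pairs come from chromosome 9 (miR-23b-3p, miR-27b-3p) and chromosome 19 (miR-23a-3p, miR-27a-3p).
miR-23b-3p: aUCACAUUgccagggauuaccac
miR-23a-3p: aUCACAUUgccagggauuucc
miR-27b-3p: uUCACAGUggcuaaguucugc
miR-27a-3p: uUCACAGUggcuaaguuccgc
The last group holds miRNAs with large changes, of which miR-135b-5p and miR-135a-5p share a seed.
miR-135b-5p: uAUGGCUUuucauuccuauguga
miR-135a-5p: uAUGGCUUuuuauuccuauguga
miR-105-5p: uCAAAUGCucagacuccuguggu
miR-767-5p: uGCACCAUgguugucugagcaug
miR-146a-5p: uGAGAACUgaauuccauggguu
miR-34a-5p: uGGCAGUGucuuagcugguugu
Counting positions from the 5′ end of the first-named miRNA, with its base first, miR-99a-5p differs from miR-100-5p by U16A, let-7c-5p from let-7a-5p by G19A, miR-27b-3p from miR-27a-3p by U19C, miR-106a-5p from miR-17-5p by A1C and miR-135b-5p from miR-135a-5p by C11U. miR-23b-3p differs from miR-23a-3p by A19U and by 2 further bases at its 3′ end. Such pairs can share reads, and how the authors assigned reads that match several miRNAs is not given in the sources used here.

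The knockdown cell libraries held 3159478 and 3140610 counts, and the control cell libraries 11840597 and 11066570. Levels are in CPM, the counts scaled to a common library total, and 1 count was worth 0.317 and 0.318 CPM in knockdown cells and 0.0845 and 0.0904 CPM in control cells. The shallower knockdown libraries detected 957 and 936 miRNAs, against 1186 and 1189 in control cells. Of 2588 miRNAs in the table, 1476 had a count in at least 1 of the 4 libraries and 613 passed the filter on low counts and were tested. The 10 most abundant miRNAs took 72.8% and 71.8% of the counts in knockdown cells and 72.3% and 71.9% in control cells. Replicates correlated at 0.9958 in knockdown cells (418 miRNAs with at least 20 counts) and at 0.9966 in control cells (573 miRNAs), in log2 CPM across miRNAs, which are not independent replicates.

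By edgeR's quasi-likelihood test with Benjamini-Hochberg adjustment at 0.05, 330 of the 613 tested miRNAs differed between the lines (53.8%), 149 of them higher in knockdown cells (24.3%) and 181 lower (29.5%). That split depends on the scaling: with DESeq2's size factors 172 were higher and 160 lower, and DESeq2 called 154 higher and 133 lower. The differences reached into the abundant miRNAs. The higher ones took 20.7% and 21.1% of all counts in knockdown cells and 9.54% and 9.68% in control cells. The lower ones took 15.97% and 16.2% in knockdown cells and 26.4% and 26.8% in control cells. Of the miRNAs that passed, 97 differed at least 4-fold (15.8% of those tested), 53 higher and 44 lower, while 112 differed by less than 2-fold. At 16-fold or more, 24 were higher and 14 lower. The median log2 fold change over the tested miRNAs was −0.11, and DESeq2's size factors raised it by 0.12, so that smaller changes are relative to the scaling. The count of calls rests on both knockdown libraries: it was 196 without knockdown replicate 1 and 218 without replicate 2. With each of the 4 libraries left out in turn, 178 calls held in every such fit, 86 higher and 92 lower, and 63 of these were at least 4-fold.

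**Figure D1:**
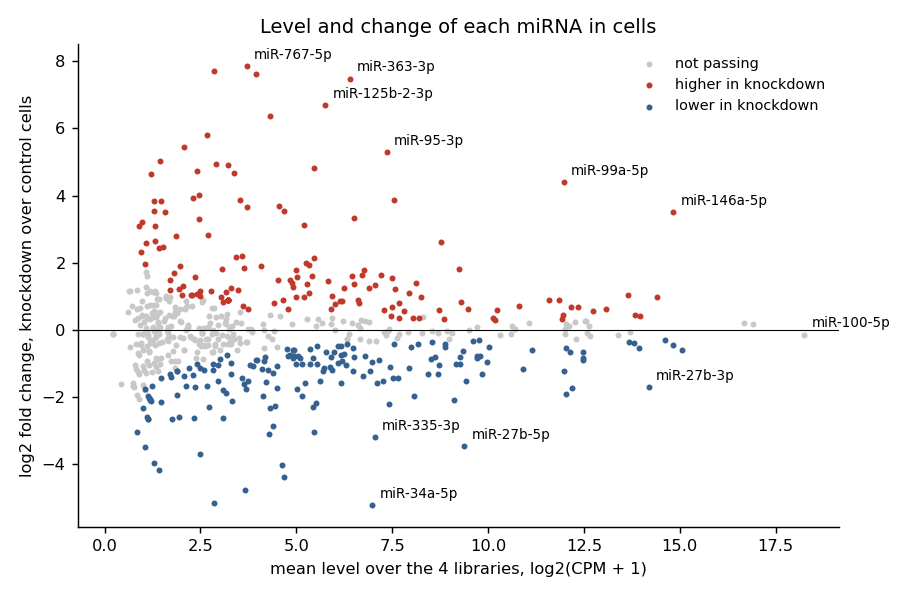
Each point is 1 of 598 tested miRNAs with a count in both groups, with its mean level over the 4 libraries as log2(CPM + 1) on the x axis and its log2 fold change, knockdown over control cells, on the y axis. Calls of edgeR's test are red (higher in knockdown) or blue (lower), and miR-99a-5p and miR-146a-5p stand far above 0 at high levels while miR-100-5p, the most abundant miRNA, lies near 0.

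The cluster of miR-99a, let-7c and miR-125b-2 on chromosome 21 rose as a whole, with all 5 of its tested entries higher in knockdown cells. miR-99a-3p and let-7c-3p, with 0 and 2 counts in control cells, were too low there to pass the filter on low counts. For these 2 entries the direction is partly set by the filter. MIR99A (positions 16539089 to 16539169) and MIRLET7C (16539828 to 16539911) lie in introns of the long noncoding RNA gene MIR99AHG on the plus strand (GRCh38, GENCODE v29). miR-99a-5p, whose seed family represses mTOR pathway genes, had 8129 and 7242 CPM in knockdown cells, against 373 and 361 CPM in control cells. Both knockdown libraries lay far above both control libraries, a 21.2-fold difference (log2 fold change 4.40 with SE 0.13, edgeR adjusted p = 7.46e-16). Its SE was derived from the F statistic. let-7c-5p, a member of the let-7 family of growth-restraining miRNAs, had 160 and 167 CPM in knockdown cells, against 15.5 and 16.9 CPM in control cells (log2 fold change 3.34, SE 0.17). miR-125b-2-3p had 102 and 109 CPM in knockdown cells, against 0.929 and 1.08 CPM in control cells (log2 fold change 6.70, SE 0.25).

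The passenger arms of the same hairpins moved the same way. miR-99a-3p had 15 and 16 counts in knockdown cells and no count in either control library, which puts it at least 37.6-fold higher (a bound from 3 counts over the summed total of the control group). let-7c-3p had 16 counts in all in knockdown cells and 2 in control cells, both in replicate 2, a 29.1-fold higher share with a 95% counting interval of 6.84 to 261. miR-125b-5p is made from this cluster and from a copy on chromosome 11, and its 2 sources cannot be told apart by its sequence. It had 12387 and 12332 CPM in knockdown cells, against 16559 and 16471 CPM in control cells, with a log2 fold change of −0.40 (SE 0.11), a call lost with any 1 of the 4 libraries left out (−0.40 to −0.35). In the chromosome 11 copy of the cluster none of 4 tested entries rose and 3 fell. Of these 3 calls 1 held in each leave-one-out fit, that of miR-125b-1-3p (log2 fold change −0.79). The leading product of the chromosome 11 copy, miR-100-5p, had 300116 and 285315 CPM in knockdown cells and 335383 and 316649 CPM in control cells. miR-100-5p did not pass (−0.14 ± 0.12 SE on the log2 scale, adjusted p = 0.358 by edgeR's test). It was called lower with no filter on low counts (−0.37, adjusted p = 0.00145 by edgeR's test) and when only the 4 libraries entered the fit (−0.11, adjusted p = 0.0402 by edgeR's test).

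The second cluster to rise was miR-106a-363 on the X chromosome, a copy of the growth-promoting miR-17-92 cluster. All 4 of its tested entries, of 10 listed, were higher. miR-363-3p and miR-18b-5p were too low in control cells to pass the filter on low counts there. The agreement among tested entries is thus partly set by the filter. miR-363-3p had 167 and 163 CPM in knockdown cells, against 1.18 and 0.633 CPM in control cells (log2 fold change 7.48, SE 0.25). Its 528 and 512 counts in knockdown cells stood against 14 and 7 counts in the deeper control libraries. miR-20b-5p had 79.1 and 88.2 CPM in knockdown cells, against 2.79 and 3.16 CPM in control cells (log2 fold change 4.82, SE 0.22). miR-106a-5p had 53.2 and 65.0 CPM in knockdown cells, against 14.9 and 14.8 CPM in control cells (log2 fold change 2.004, SE 0.18). By place in the minus-strand transcript, the change was smallest for miR-106a at the 5′ end and largest for miR-363 at the 3′ end. Likeness to the related miRNAs runs the same way. miR-106a-5p differs by 1 base from the abundant miR-17-5p, and miR-18b-5p by 1 base from miR-18a-5p. miR-363-3p differs from miR-92a-3p at 12 positions. Such near-identical pairs can share reads, so place in the cluster and shared reads cannot be told apart here. miR-18b-5p, with 17 and 12 counts in knockdown cells against 9 and 6 in control cells, changed by 2.80 (SE 0.55) and no longer passed without knockdown replicate 1 (2.54).

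The related clusters did not follow. In miR-17-92 on chromosome 13, 1 of 11 tested entries rose, 2 fell and 8 did not pass. miR-17-5p had 2206 and 2383 CPM in knockdown cells and 1981 and 2001 CPM in control cells (log2 fold change 0.22, adjusted p = 0.101), and miR-92a-3p had 3972 and 4389 CPM in knockdown cells and 3934 and 4260 CPM in control cells (0.041, adjusted p = 0.785). miR-17-5p passed at 0.35 with DESeq2's size factors, at 0.27 after thinning to equal depth and at 0.25 with the 4 libraries alone. In miR-106b-25, which lies in an intron of the DNA replication gene MCM7 on chromosome 7, all 6 tested entries fell, with a median log2 fold change of −0.73, and 3 of the 6 held with each library left out. miR-106b-5p had 271 and 298 CPM in knockdown cells, against 473 and 526 CPM in control cells (−0.80, SE 0.12).

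**Figure D2:**
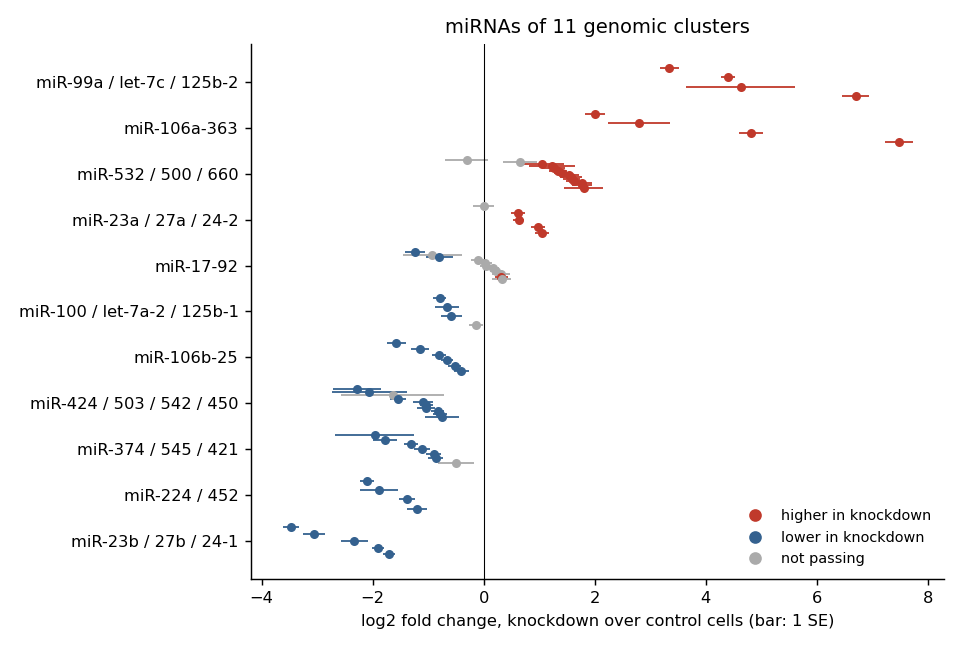
Points are the log2 fold changes, knockdown over control cells, of the tested miRNAs of 11 genomic clusters, with bars of 1 SE, coloured by edgeR's call. The miR-99a and miR-106a-363 clusters lie wholly to the right and the miR-23b, miR-224 and miR-106b-25 clusters wholly to the left, while most of miR-17-92 lies near 0. miR-99a-3p, with no count in control cells, is not drawn.

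Several single hairpins were near absent in control cells and present in knockdown cells. MIR105-1, MIR105-2 and MIR767 lie in introns of GABRA3, a GABA receptor subunit gene on the X chromosome that is silent in most adult tissues outside the brain. miR-105-5p, known in breast cancer for weakening endothelial junctions, had 100 and 82 counts in knockdown cells and 1 and 2 counts in control cells, a 221-fold higher share with a 95% counting interval of 74.3 to 1080. miR-767-5p had 63 and 88 counts in knockdown cells and 1 count in each control library, a 275-fold higher share (74.7 to 2287). The other arms had 3 counts in all in knockdown cells for each hairpin, none in control cells, and were not tested.

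miR-708-5p had 117 and 118 counts in knockdown cells and 3 and 7 in control cells (log2 fold change 6.38, SE 0.36), and its other arm, miR-708-3p, had 12 and 10 counts in knockdown cells and none in control cells, at least 26.7-fold higher. miR-95-3p had 300.4 and 333 CPM in knockdown cells, against 7.35 and 8.95 CPM in control cells (5.29, SE 0.20). miR-135b-5p, from an intron of LEMD1 on chromosome 1, had 345 and 356 CPM in knockdown cells, against 24.1 and 24.2 CPM in control cells (3.87, SE 0.15), and miR-135b-3p rose by 3.70 (SE 0.24). The chromosome 3 relative miR-135a-5p had 39 and 27 counts in knockdown cells and 0 and 4 in control cells. Its log2 fold change was 5.79 (SE 0.58), and 9.21 without control replicate 2, which held all its control counts. All 3 tested entries of the miR-135 family, of 4 listed, were thus higher. miR-135a-5p was too low in control cells to pass the filter on low counts there, so its direction is partly set by the filter. miR-135b-5p made up 96.5% and 97.6% of the counts with that seed in knockdown cells.

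miR-218-5p, made from hairpins in introns of the axon guidance genes SLIT2 and SLIT3, had 719 and 769 CPM in knockdown cells, against 119 and 127 CPM in control cells (log2 fold change 2.61, SE 0.13). miR-218-1-3p, which comes from the SLIT2 copy alone, rose by 3.54 (SE 0.25). Smaller in level were miR-129-5p (18.99 and 17.2 CPM in knockdown cells, against 0.760 and 0.633 CPM in control cells, log2 fold change 4.68), miR-217 (18.4 and 21.3 CPM in knockdown cells, against 1.27 and 1.45 CPM in control cells, 3.87) and miR-1269b (26.9 and 18.5 CPM in knockdown cells, against 1.77 and 1.81 CPM in control cells, 3.67). miR-7973 had 30 and 37 counts in knockdown cells and none in control cells, at least 81.2-fold higher, and miR-569, from an intron of TNIK, had 21 and 20 counts in knockdown cells and none in control cells, at least 49.7-fold higher.

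By number of counts the largest rise was that of miR-146a-5p, which represses the IRAK1 and TRAF6 adaptors of NF-kappaB signalling. It had 54797 and 52000 CPM in knockdown cells, against 4790 and 4749 CPM in control cells, an 11.3-fold difference (log2 fold change 3.50, SE 0.12). miR-146a-3p had 64.3 and 64.0 CPM in knockdown cells, against 8.19 and 6.51 CPM in control cells (3.14, SE 0.19). miR-146b-5p, which has the same seed but its own gene on chromosome 10, had 168 and 159 CPM in knockdown cells and 173 and 167 CPM in control cells and did not pass (−0.05, SE 0.13, adjusted p = 0.805). Of the listed miRNAs that NF-kappaB is known to induce, 2 of 3 tested entries rose, both arms of miR-146a. miR-155-5p, another such miRNA, had 4 and 1 counts in knockdown cells and none in control cells and was not tested.

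A long X-chromosome cluster that includes miR-532, miR-500a, miR-362, miR-502 and miR-660, several of them in introns of the chloride channel gene CLCN5, rose by a moderate amount. Of its 14 tested entries 12 were higher and none lower, with a median log2 fold change of 1.47, and 10 held in each leave-one-out fit. miR-362-5p had 406 and 403 CPM in knockdown cells, against 153 and 154 CPM in control cells (1.41, SE 0.14). miR-532-5p had 153 and 158 CPM in knockdown cells, against 50.3 and 50.6 CPM in control cells (1.64, SE 0.15), and miR-660-5p had 123 and 136 CPM in knockdown cells, against 43.7 and 43.0 CPM in control cells (1.59, SE 0.15). Members of this cluster resemble each other and can share reads.

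In the miR-181 family, known for tuning lymphocyte signalling, 6 of 10 tested entries rose and 1 fell. miR-181a-5p had 6152 and 6653 CPM in knockdown cells, against 4040 and 3996 CPM in control cells (log2 fold change 0.69, SE 0.11). Some entries divide by gene. miR-181c-5p (1.90, SE 0.22) and miR-181c-3p (2.20), from chromosome 19, and miR-181a-2-3p (1.60), from chromosome 9, rose. miR-181b-3p (−1.29, SE 0.21), from chromosome 1, fell, while miR-181a-3p, also from chromosome 1, did not pass (−0.15, SE 0.13). In the miR-30 family 5 of 11 tested entries rose and 3 fell. miR-30a-5p had 28234 and 28496 CPM in knockdown cells, against 14626 and 14698 CPM in control cells (0.97, SE 0.12). Its gene on chromosome 6 also makes miR-30a-3p, which rose by 0.84, while miR-30c-1-3p from chromosome 1 fell by 1.07.

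On the side of the losses, the cluster of miR-23b, miR-27b and miR-24-1 on chromosome 9 fell as a whole. MIR23B (95085208 to 95085304) and MIR27B (95085445 to 95085541) lie in introns of the aminopeptidase gene C9orf3, and MIR24-1 (95086021 to 95086088) within an exon of at least 1 of its transcripts. miR-27b-3p, which represses lipid metabolism genes, had 8468 and 8902 CPM in knockdown cells, against 28633 and 28473 CPM in control cells (log2 fold change −1.70, SE 0.11). miR-23b-3p had 1740 and 1754 CPM in knockdown cells, against 6706 and 6428 CPM in control cells (−1.90, SE 0.11). The passenger arms fell further: miR-27b-5p had 116 and 101 CPM in knockdown cells, against 1201 and 1231 CPM in control cells (−3.47, SE 0.15), and miR-23b-5p had 8.23 and 10.2 CPM in knockdown cells, against 76.3 and 78.1 CPM in control cells (−3.05, SE 0.20). miR-24-1-5p fell by 2.33 (SE 0.24). All 5 entries held in each leave-one-out fit.

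The copy of this cluster on chromosome 19 went the other way, with 4 of 5 tested entries higher and none lower. miR-27a-3p had 16350 and 17944 CPM in knockdown cells, against 8326 and 8365 CPM in control cells (log2 fold change 1.05, SE 0.12). miR-24-2-5p, which only the chromosome 19 copy makes, had 396 and 409 CPM in knockdown cells, against 212 and 201 CPM in control cells (0.98, SE 0.12), while its counterpart miR-24-1-5p from chromosome 9 fell. miR-23a-3p had 10496 and 10258 CPM in knockdown cells, against 6964 and 6590 CPM in control cells (0.63, SE 0.11).

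Because copies with the same seed can bind the same targets, counts were also summed per seed and fitted again across 451 seeds, of which 231 passed (51.2%), 108 higher and 123 lower. The sums cover 96.65% of the cell counts, those of miRNAs with a sequence in the RefSeq table. Where members moved in opposite directions, the sum barely moved for the miR-23 seed and was lower for the miR-27 seed. The miR-23 seed UCACAUU summed to 12237 and 12013 CPM in knockdown cells and 13673 and 13021 CPM in control cells, a log2 fold change of −0.05 (95% interval −0.29 to 0.19). Within it, miR-23a-3p made up 85.8% and 85.4% of the counts in knockdown cells and 50.9% and 50.6% in control cells. The miR-27 seed UCACAGU summed to 24818 and 26846 CPM in knockdown cells and 36959 and 36838 CPM in control cells (−0.42, adjusted p = 0.00497), a call lost with any 1 of the 4 libraries left out (−0.45 to −0.32). miR-27a-3p made up 65.9% and 66.8% of it in knockdown cells and 22.5% and 22.7% in control cells.

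As for the miR-23 seed, the sum barely moved for some families of the copied clusters that rose. The sum of the miR-17 seed AAAGUGC changed by −0.09 (95% interval −0.34 to 0.16), with miR-20b-5p at 0.774% and 0.806% of it in knockdown cells and 0.0237% and 0.0258% in control cells. The miR-92 seed AUUGCAC changed by −0.05 (−0.29 to 0.20), with miR-363-3p at 3.06% and 2.67% of it in knockdown cells and 0.0192% and 0.00961% in control cells. The seed of miR-99 and miR-100, ACCCGUA, changed by −0.03 (−0.32 to 0.26), with miR-99a-5p at 2.53% and 2.37% of it in knockdown cells and 0.107% and 0.109% in control cells. Thus miR-363-3p, miR-20b-5p and miR-99a-5p, for all their folds, remained small shares of their seed families. The miR-146 seed GAGAACU was different: it summed to 54965 and 52159 CPM in knockdown cells, against 4964 and 4916 CPM in control cells (3.53, SE 0.13, adjusted p = 3.61e-12). So was the miR-135 seed AUGGCUU, at 357 and 365 CPM in knockdown cells, against 24.1 and 24.6 CPM in control cells (3.98, SE 0.17).

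**Figure D3:**
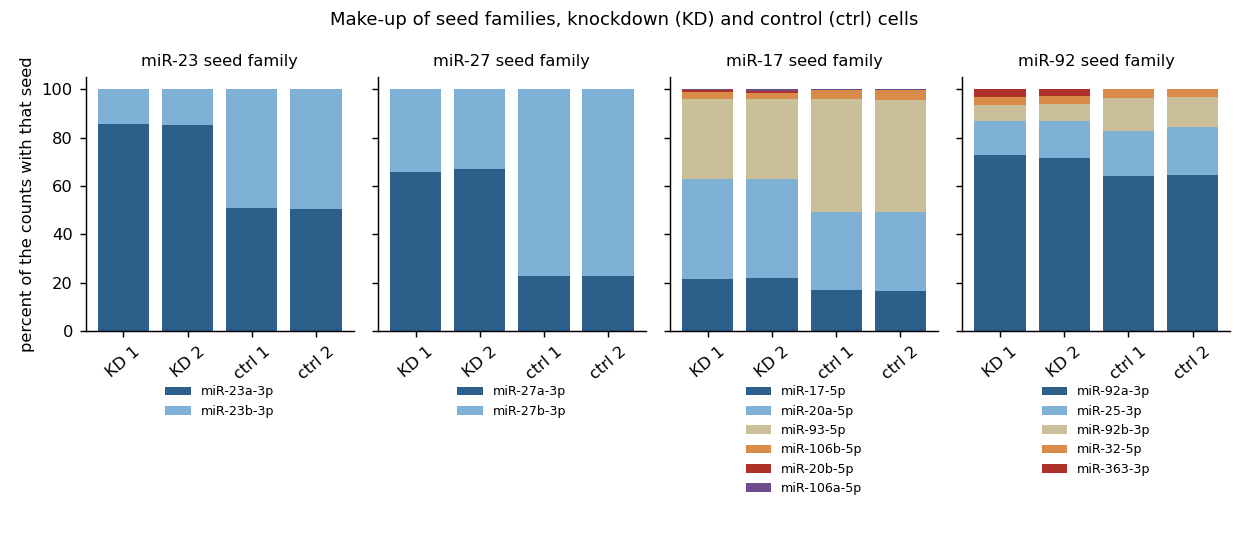
Stacked bars give the percent of the counts with a given seed that each miRNA holds, in the 2 knockdown (KD) and 2 control (ctrl) cell libraries. miR-23a-3p holds 85.8% and 85.4% of its seed in knockdown cells and 50.9% and 50.6% in control cells, and miR-363-3p is a thin band of 3.06% and 2.67% in knockdown cells that is not visible in control cells.

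miR-34a-5p had the largest fall among the miRNAs above the median level. It is a known transcriptional target of p53, although MDA-MB-231 carries a mutant p53. It had 21 and 20 counts in knockdown cells and 2823 and 2758 counts in control cells, that is 6.65 and 6.37 CPM in knockdown cells, against 238 and 249 CPM in control cells (log2 fold change −5.21, SE 0.20). Its other arm had no count in knockdown cells and 12 and 10 counts in control cells and was not tested. miR-34c-5p, a relative with a gene on another chromosome, had 511 and 529 CPM in knockdown cells, against 1277 and 1329 CPM in control cells (−1.31, SE 0.12). Of 8 tested entries of the list of p53-induced miRNAs, 5 fell, all of the miR-34 family, and 2 rose. Those 2 were miR-192-5p, with 326 and 336 CPM in knockdown cells, against 153 and 158 CPM in control cells (1.10, SE 0.13), and miR-194-5p, with 255 and 275 CPM in knockdown cells, against 111 and 120 CPM in control cells (1.22, SE 0.14). Of the 5 that fell, 2 held in each leave-one-out fit, miR-34a-5p and miR-34c-5p.

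miR-210 is the best known miRNA induced by hypoxia, through HIF1A. miR-210-3p had 54.4 and 66.2 CPM in knockdown cells, against 275 and 288 CPM in control cells (log2 fold change −2.21, SE 0.14), and miR-210-5p fell by 2.63 (SE 0.50). Of the miR-33 entries, whose hairpins lie in introns of the sterol regulators SREBF1 and SREBF2 and which repress cholesterol export genes, 3 of 4 fell. miR-33b-3p had 5.38 and 4.14 CPM in knockdown cells, against 37.4 and 33.0 CPM in control cells (−2.87, SE 0.26), and miR-33a-5p had 23.4 and 20.4 CPM in knockdown cells, against 37.6 and 38.2 CPM in control cells (−0.78, SE 0.18).

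miR-335, in an intron of the imprinted gene MEST on chromosome 7, is known as a suppressor of metastasis in breast cancer. miR-335-5p had 119 and 97.8 CPM in knockdown cells, against 434 and 423 CPM in control cells (log2 fold change −1.97, SE 0.15), and miR-335-3p had 24.1 and 27.1 CPM in knockdown cells, against 233 and 239.6 CPM in control cells (−3.19, SE 0.17). MIR489 and MIR653 lie in introns of the calcitonin receptor gene CALCR, also on chromosome 7. miR-489-3p had no count in knockdown cells and 49 and 47 counts in control cells, at least 8.80-fold lower. miR-653-3p had 5 and 0 counts in knockdown cells and 276 and 237 counts in control cells (−4.77, SE 0.49), and without knockdown replicate 1, which held the 5 counts, the fitted change was −10.6. miR-653-5p fell by 3.70 (SE 0.51).

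miR-224 and miR-452, which lie within the GABA receptor gene GABRE on the X chromosome, fell in all 4 tested entries. miR-224-5p had 201 and 217 CPM in knockdown cells, against 882 and 925 CPM in control cells (log2 fold change −2.10, SE 0.13), and miR-452-5p had 60.5 and 56.0 CPM in knockdown cells, against 159 and 148 CPM in control cells (−1.38, SE 0.15). The GABRE-hosted pair and the GABRA3-hosted miR-105 and miR-767, all on the minus strand of the same end of the X chromosome, moved in opposite directions. miR-10a, in the HOXB cluster on chromosome 17, fell in both arms: miR-10a-5p had 2237 and 2089 CPM in knockdown cells, against 7417 and 6965 CPM in control cells (−1.72, SE 0.11), and miR-10a-3p fell by 2.19 (SE 0.19). Of 5 tested entries hosted in HOX clusters 4 fell and none rose, among them miR-10b-5p, with 2.85 and 4.14 CPM in knockdown cells, against 10.9 and 9.49 CPM in control cells (−1.53, SE 0.35), a call lost without knockdown replicate 1 (−1.28).

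Single hairpins that fell were miR-3681-5p, with 8 and 6 counts in knockdown cells against 556 and 514 in control cells (log2 fold change −4.37, SE 0.28), and miR-577, from an intron of UGT8, with 10 and 7 counts in knockdown cells against 546 and 475 in control cells (−4.02, SE 0.28). miR-149-5p, from an intron of GPC1, had 7 and 17 counts in knockdown cells and 385 and 370 in control cells (−3.10, SE 0.28). miR-3065-5p fell by 2.29 (SE 0.19) and miR-1180-5p by 2.11 (SE 0.31). In each of them both knockdown libraries lay below both control libraries in CPM, which was so, in either direction, for 490 of the 613 tested miRNAs (79.9%).

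**Figure D4:**
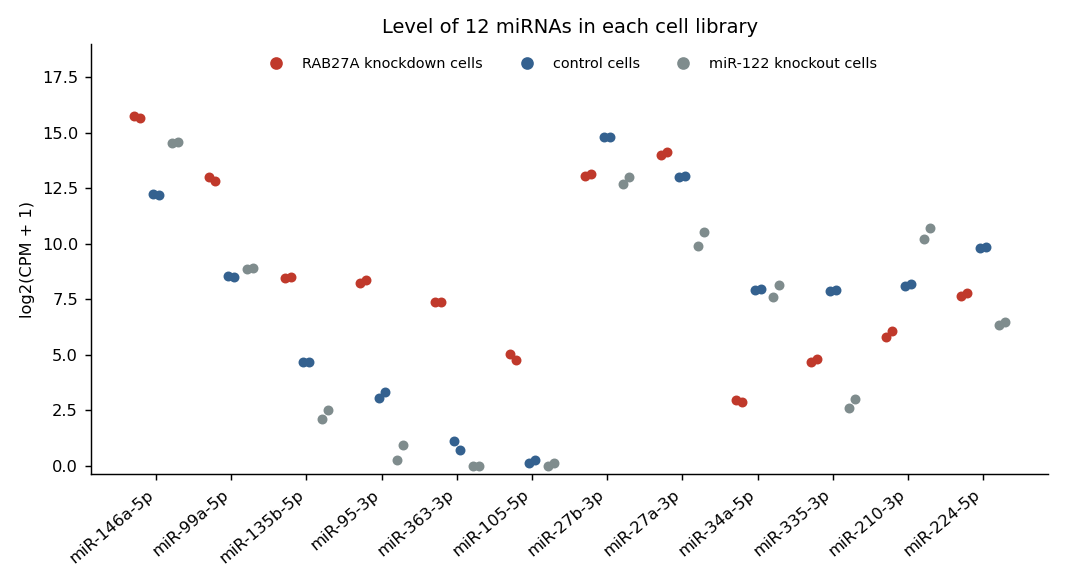
Points are single libraries, with the level of 12 miRNAs as log2(CPM + 1) in RAB27A knockdown cells (red), control cells (blue) and miR-122 knockout cells (grey). The 2 libraries of a group lie close together, and miR-146a-5p lies highest in knockdown cells, lower in knockout cells and lowest in control cells.

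The miR-15/16 family, which represses cyclins and BCL2, had 11 of its 12 tested entries lower in knockdown cells, and 8 held in every leave-one-out fit. The losses came from several loci: miR-16-1-3p (log2 fold change −2.62, SE 0.34) from chromosome 13, miR-195-5p (−1.59, SE 0.19) and miR-497-5p (−1.66, SE 0.35) from chromosome 17, and miR-503-5p (−0.79, SE 0.12) from the X chromosome. miR-16-5p, made from chromosomes 13 and 3, had 4316 and 4515 CPM in knockdown cells, against 7326 and 6797 CPM in control cells (−0.66, SE 0.11). The X-linked cluster of miR-424, miR-503, miR-542 and miR-450 had 9 of 10 tested entries lower, with a median of −1.06. miR-450a-5p changed by −1.03, miR-450b-5p by −1.53 and miR-542-3p by −1.03.

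All 5 tested entries of the miR-26 family fell, with a median of −1.76, which is the value of a passenger arm. miR-26a-5p changed by −0.45 (SE 0.12). It held 86.6% and 85.1% of the counts with its seed in knockdown cells, and 82.9% and 80.8% in control cells. The 3 hairpins of the family lie in introns of CTDSPL, CTDSP2 and CTDSP1, genes of small phosphatases that restrain RNA polymerase II and RB phosphorylation. The passenger arms miR-26b-3p (−2.28, SE 0.24) and miR-26a-1-3p (−1.76) fell more than miR-26b-5p, which had 3800 and 4204 CPM in knockdown cells, against 6931 and 7939 CPM in control cells (−0.88, SE 0.12). In the miR-29 family, which represses collagens and other matrix genes, 6 of 7 tested entries fell and 3 held in each leave-one-out fit, the largest being miR-29c-5p (−1.19) and miR-29a-5p (−1.02). miR-29a-3p, with 97.8% and 97.9% of the counts with its seed in knockdown cells, changed by −0.54 (SE 0.11). The transcript FTX on the X chromosome hosts miR-374a and miR-374b, and 6 of the 7 tested entries listed with them fell, miR-374b-5p with 110 and 108 CPM in knockdown cells, against 229 and 247 CPM in control cells (−1.11, SE 0.14). In the let-7 family 5 of 9 guide strands fell and 2 rose, and 1 of the 5, let-7b-5p, held in each leave-one-out fit (−0.79, SE 0.12). The sum of the let-7 seed GAGGUAG changed by −0.32 (95% interval −0.59 to −0.05, adjusted p = 0.0466), a call lost with any 1 of the 4 libraries left out (−0.31 to −0.23).

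Of the other listed families, the miR-200 family, which holds epithelial identity, was split by locus. The chromosome 1 members miR-200a-3p (80.1 and 83.1 CPM in knockdown cells, against 30.2 and 29.5 CPM in control cells, log2 fold change 1.46), miR-200b-3p (166 and 164 CPM in knockdown cells, against 73.5 and 66.9 CPM in control cells, 1.25) and miR-429 (1.35) rose. No entry of the chromosome 12 pair of miR-200c and miR-141 rose, and none of its calls held in each leave-one-out fit. In the list of metastasis-linked miRNAs of breast cancer, 3 of 12 tested entries rose, miR-105-5p and both arms of miR-126, and 3 fell, both arms of miR-335 and miR-10b-5p. Both shares are near those over all tested miRNAs, 24.3% higher and 29.5% lower. The primate C19MC cluster had 9 of 13 tested entries higher, but 6 of these are 1 sequence listed 6 times with identical counts, and 2 of the 9 held in each leave-one-out fit, miR-516a-5p (231 and 213 CPM in knockdown cells, against 73.3 and 72.0 CPM in control cells, 1.63) and miR-522-3p (1.09). miR-484, whose precursor is made without Drosha, had 660 and 714 CPM in knockdown cells, against 1276 and 1399 CPM in control cells (−0.95, SE 0.12), and 1 of the 6 tested entries of the Drosha-independent list rose while 2 fell. Of 27 tested entries of the miR-548 family 2 rose, 2 fell and none of these 4 held in each leave-one-out fit. Of 8 tested entries of miR-193 and miR-365 none rose and 3 fell, of 8 in the miR-130, miR-301 and miR-454 family 2 rose and 2 fell, of 6 in the miR-148 and miR-152 family 1 rose and 2 fell, and of 5 in the miR-183 cluster on chromosome 7 none rose and 3 fell. Of 4 tested entries of miR-221 and miR-222 3 rose, none of which held in each leave-one-out fit. Of 6 tested entries of the cluster of miR-99b, let-7e and miR-125a 3 fell, none rose and 1 call held.

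Over the whole table, the arms of a hairpin mostly moved together. Of 161 hairpins with both arms tested, both arms were called in 72, and in all 72 they moved in the same direction, 28 higher and 44 lower. In 49 hairpins 1 arm was called and in 40 neither. Across the 161 hairpins the changes of the 2 arms had a Spearman correlation of 0.859, a description of these 4 libraries since arms share them. The less abundant arm had the lower log2 fold change in 102 of the 161, with a median difference of −0.18 between it and the more abundant arm. The passenger arms of miR-23b, miR-27b and miR-26b are examples. Entries of hairpins within 10000 bases of each other on 1 strand were grouped as well. Of 35 such groups, 26 had at least 2 entries called, and in 25 of these all calls had 1 direction, 8 higher and 17 lower. The exception was miR-17-92. The 25 include a C19MC group whose 6 entries have identical counts, so that its agreement was fixed in advance. They also include groups whose only calls are both arms of 1 hairpin, miR-222 or miR-29c. These groups say nothing of agreement between hairpins.

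Other features of the miRNAs were set beside the change. Over 535 tested miRNAs with a sequence, log2 fold change and GC content had a Spearman correlation of 0.0072. The 4 bases GGAG, read on the mature strand alone, are part of a motif known for sorting miRNAs into exosomes. They occurred in 11.3% of the higher miRNAs (15 of 133), 10% of the lower ones (17 of 170) and 10.3% of all 535. Preference for EVs was read from the miR-122 knockout line, whose libraries enter neither side of the comparison: over 290 miRNAs with at least 10 CPM, its EV over cell log2 ratio and the knockdown change in cells had a Spearman correlation of −0.048. In 4 bins of equal size by that ratio, from the most cell-retained to the most EV-enriched, the median log2 fold change was −0.04, −0.09, −0.20 and −0.43. In the same order the bins held 73, 72, 72 and 73 miRNAs, with 18, 23, 24 and 20 higher calls and 29, 25, 31 and 37 lower calls. Over all 613 tested miRNAs, which include those at lower levels, 24.3% were higher and 29.5% lower. In 4 bins of mean level, from low to high, 18, 38, 45 and 48 miRNAs were higher and 25, 29, 67 and 60 lower.

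Markers of other cell types were read to place the lines. Each list holds few tested entries, and over all 613 tested miRNAs 24.3% were higher and 29.5% lower. The list of miRNAs abundant in mesenchymal-type breast cancer lines (miR-100, miR-21, miR-221, miR-222 and miR-22) summed to 563756 and 555787 CPM in knockdown cells and 566911 and 560668 CPM in control cells. Blood cell markers summed to 112 and 113 CPM in knockdown cells, against 289 and 275 CPM in control cells, with 2 of 4 tested entries lower, both arms of miR-486, of which miR-486-5p held in each leave-one-out fit, and 5 of 12 listed entries without a count in the 4 libraries. Stroma markers summed to 13.3 and 16.6 CPM in knockdown cells and 20.2 and 22.0 CPM in control cells, and none of 4 tested entries passed. The 2 arms of the endothelial miR-126 summed to 196 and 211 CPM in knockdown cells, against 113 and 110 CPM in control cells, and both rose. The 3 tested entries of the liver list rose, and the list summed to 594 and 625 CPM in knockdown cells, against 264 and 279 CPM in control cells, nearly all of it miR-192 and miR-194. miR-122-5p, the defining liver miRNA, had 39 and 40 counts in knockdown cells and 5 and 4 counts in control cells. Epithelial markers summed to 328 and 335 CPM in knockdown cells, against 174 and 164 CPM in control cells, with 3 of 8 tested entries higher and 2 lower. Neuronal markers summed to 829 and 760 CPM in knockdown cells, against 1356 and 1375 CPM in control cells, with 1 of 6 tested entries higher and 1 lower. Muscle markers stayed under 10 CPM and embryonic stem cell markers under 1 CPM in all 4 libraries. The part of these cell types in the changes above was not tested. In bulk RNA, fewer cells that express a miRNA and less of it per cell cannot be told apart.

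Cells of the miR-122 knockout line, a separate derivative of MDA-MB-231, show how far lines of this origin differ from each other. Between knockdown and knockout cells 395 of 613 miRNAs passed (64.4%), 207 higher and 188 lower in knockdown cells. Scaling by total counts instead moved the share that was higher to 63.1%, against 52.4%. Both comparisons use the same knockdown libraries, so levels are given side by side. Some miRNAs set the knockdown line apart from both other lines: miR-99a-5p had 8129 and 7242 CPM in knockdown cells and 468 and 484 CPM in knockout cells (log2 fold change 3.68), miR-34a-5p had 6.65 and 6.37 CPM in knockdown cells and 190 and 284 CPM in knockout cells (−5.49), and miR-363-3p had 528 and 512 counts in knockdown cells and none in knockout cells, which lay at the low end together with control cells. For others the control line was the one apart. miR-335-3p had 24.1 and 27.1 CPM in knockdown cells, 5.02 and 7.12 CPM in knockout cells and 233 and 239.6 CPM in control cells. miR-577 had 3.17 and 2.23 CPM in knockdown cells, 3.54 and 3.56 CPM in knockout cells and 46.1 and 42.9 CPM in control cells, and it did not pass between knockdown and knockout cells (log2 fold change −0.72, adjusted p = 0.0890). miR-27b-3p had 8468 and 8902 CPM in knockdown cells, 6593 and 8324 CPM in knockout cells and 28633 and 28473 CPM in control cells, with no call between knockdown and knockout cells (−0.10, adjusted p = 0.413). For its passenger arm the knockdown line was the one apart, with 116 and 101 CPM of miR-27b-5p in knockdown cells, 1888 and 1748 CPM in knockout cells and 1201 and 1231 CPM in control cells. miR-146a-5p stood in between in knockout cells, at 23567 and 24854 CPM, and miR-210-3p was lowest in knockdown cells and highest in knockout cells, at 1169 and 1652 CPM.

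The knockdown change in cells was set against the same change in EVs, in 1 model over all 12 libraries with the difference of the 2 changes as the tested term. The difference passed for 107 of 574 miRNAs (18.6%), 82 of them more positive in cells (14.3%), and 172 had an unadjusted p under 0.05. DESeq2 called 134, of which 66.4% were more positive in cells, against 76.6% of the 107. The knockdown EV libraries are shallow, with 164656 and 170366 counts, so that 1 count is worth 6.07 and 5.87 CPM there. For tested miRNAs with no count in cells of either line, such as miR-136-3p, the difference could not pass. For miR-146a-5p the log2 fold change was 3.55 in cells and 3.34 in EVs in this model, and the difference of 0.22 (SE 0.16) did not pass (adjusted p = 0.402). For miR-99a-5p the log2 fold change was 4.46 in cells and 1.91 in EVs, and the difference of 2.55 (SE 0.17) passed (adjusted p = 4.09e-18 by edgeR's test). miR-363-3p changed by 7.52 in cells and by 3.51 in EVs, with a difference of 4.01 (SE 0.43). miR-27a-5p changed by 0.68 in cells and by −1.64 in EVs, and miR-100-5p by −0.09 in cells and by −1.50 in EVs. miR-34c-5p went the other way round, with −1.26 in cells and 0.09 in EVs (difference −1.35, SE 0.19).

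Markers of other cell types were also read in the EVs, where the lists went different ways. Of the 82 that were more positive in cells, 11 are on such a marker list and 71 on none. The lists hold only a small part of the 574 tested miRNAs, so the 11 and the 71 cannot be compared directly. Over all 574 the share more positive in cells was 14.3%. Blood cell markers summed to 170.1 and 264 CPM in knockdown EVs, against 11528 and 9895 CPM in control EVs. The difference passed for 3 of 10 tested entries on this list, each more positive in cells. It could not pass for miR-223-3p, miR-223-5p and miR-150-5p, which had no count in cells of either line. In EVs all of these were called lower by edgeR's test (adjusted p = 2.35e-16, 0.0286 and 1.29e-14). Stroma markers summed to 115 and 112 CPM in knockdown EVs, against 3849 and 3934 CPM in control EVs, with 4 of 8 tested entries more positive in cells and 8 of 10 listed entries without a count in knockdown EVs. These 4 include miR-199a-3p and miR-199b-3p, which have identical counts. The arms of miR-126 summed to 231 and 276 CPM in knockdown EVs, against 2966 and 2648 CPM in control EVs, and passed for both miR-126-3p (log2 fold change 0.85 in cells and −3.12 in EVs) and miR-126-5p (1.07 in cells and −4.66 in EVs). miR-486-5p, on the blood list, changed by −1.38 in cells and by −4.62 in EVs. The liver list summed to 802 and 652 CPM in knockdown EVs and 735 and 684 CPM in control EVs, with 2 of 3 tested entries more positive in cells. Epithelial markers summed to 431 and 423 CPM in knockdown EVs and 228 and 192 CPM in control EVs, and none of 7 tested entries passed. Neuronal markers summed to 844 and 904 CPM in knockdown EVs and 968 and 884 CPM in control EVs, with 1 of 5 tested entries more negative in cells. In the blood, stroma and miR-126 lists both knockdown EV libraries lay far below both control EV libraries. The part of these markers in the differences was not tested.

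**Figure D5:**
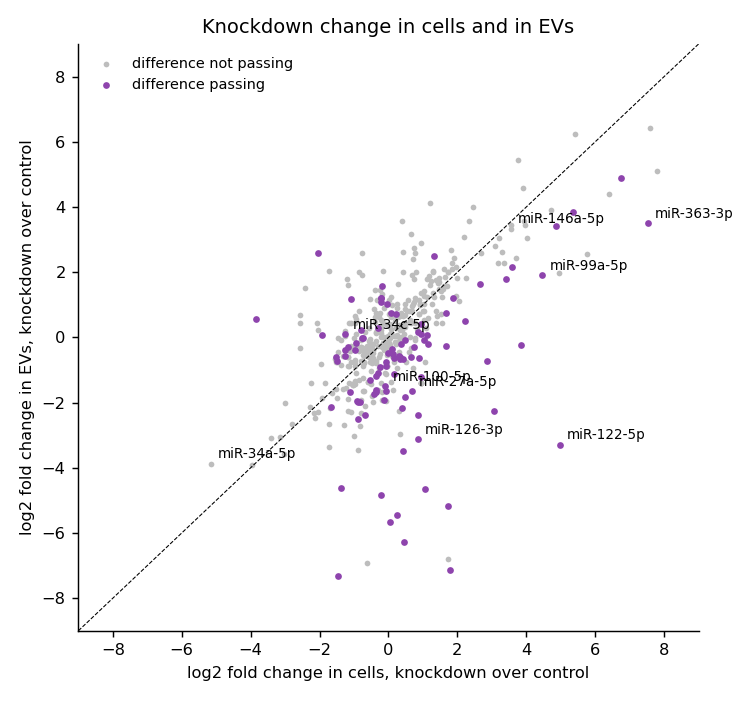
Each point is 1 of 460 miRNAs with a count in knockdown and control cells and EVs, with its log2 fold change, knockdown over control, in cells on the x axis and in EVs on the y axis, and the dashed line marks equal change. Purple points are those whose difference passed edgeR's test, and miR-146a-5p lies near the line while miR-99a-5p, miR-363-3p and miR-100-5p lie below it.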

How the data were processed

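The libraries hold small RNAs of 17 to 52 nucleotides, cloned by a kit that needs a 5′ monophosphate and read on an Illumina Genome Analyzer IIx, per the labels' protocols. The authors deposited 1 table of raw counts per mature miRNA for all 12 libraries. cutadapt, Bowtie and the build hg19 are named in the submitters' processing notes, with no versions, and the rule for reads that match several miRNAs is not given in the sources used here. The file holds 2588 entries and 0 value columns were unused.

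Counts were scaled by TMM and fitted with edgeR 4.0.16 in R 4.3.3 (glmQLFit, glmQLFTest, filterByExpr), with knockdown, control and knockout cells sharing 1 estimate of the spread, and p-values were adjusted over all tested miRNAs by Benjamini-Hochberg at 0.05. The alternatives were DESeq2 1.42.0 and further edgeR fits, which changed the scaling, the filter, the depth and the libraries used. A held call is one that passed in each of the 4 fits without 1 library, and an entry that a fit's filter dropped counts as not held. Intervals and bounds from counts cover counting error only.

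The members, lists and tests were chosen with earlier results of these data known. miRNAs were named by a rule: the 15 largest changes per direction among calls with groups that do not overlap and a mean CPM at or above the median, the 6 most abundant, up to 3 abundant members per list, the other arms, miR-122, and up to 5 per direction with no count in 1 group. Other miRNAs, named as relatives or neighbours of these, were chosen after their values were seen. Sequences came from RefSeq tables (GRCh38.p14), matching 2281 of the 2588 entries, and host genes from GENCODE v29.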

Additional observations from a re-analysis of the deposited data

Results flagged for a closer look

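In the model over all 12 libraries, the knockdown change in cells and that in EVs differed by edgeR's test for 30 of the miRNAs named here, and each difference below is the log2 fold change in cells minus that in EVs. Several of the largest differences rest on few counts. miR-122-5p differed by 8.26 (4.97 in cells and −3.29 in EVs), with 39 and 40 counts in knockdown cells and 12 in all in knockdown EVs. miR-10b-5p differed by 5.84 (−1.47 in cells and −7.31 in EVs), with 3 counts in all in knockdown EVs. miR-126-5p differed by 5.73 and miR-126-3p by 3.97, with 24 and 61 counts in all in knockdown EVs, and miR-486-5p by 3.23, with 43. miR-155-5p had a fitted difference of 16.28, which is no measure of size, since it had no count in knockdown EVs and none in control cells.

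Members of the chromosome 21 cluster and of miR-106a-363 on the X chromosome changed more in cells than in EVs. miR-363-3p differed by 4.01, miR-99a-5p by 2.55, miR-125b-2-3p by 1.87, let-7c-5p by 1.61 and miR-20b-5p by 1.44. Of the same X cluster, miR-106a-5p (0.95, SE 0.42) and miR-18b-5p (8.25, SE 4.16) did not pass. miR-95-3p differed by 1.49, miR-218-1-3p by 1.42 and miR-218-5p by 1.03.

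The other positive differences were 2.32 for miR-27a-5p, 1.93 for miR-181a-2-3p, 1.42 for miR-100-5p, 1.36 for miR-192-5p and 1.25 for miR-125b-5p. They were 1.17 for miR-26b-5p, 1.11 for miR-24-2-5p, 1.09 for miR-484, 1.03 for miR-27a-3p and 0.93 for miR-516a-5p. They were 0.78 for let-7a-5p, 0.48 for miR-10a-5p and 0.44 for miR-92a-3p. The change was more negative in cells for miR-34c-5p, with a difference of −1.35, for miR-503-5p with −0.72 and for miR-542-3p with −0.59.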

How the results depend on the processing

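Of the 330 calls between knockdown and control cells, the count was 212 against a minimum fold change of 1.5 by glmTreat, of which 112 were lower, and 196 to 273 with 1 library left out. In those fits 94 to 124 were higher and 102 to 149 lower. DESeq2 called 287 and thinning to the shallowest library 275. Deviations of same-numbered knockdown and control libraries correlated at 0.065 across miRNAs. With 2 libraries per line this cannot tell if same-numbered libraries share a source. With the number as a replicate block 319 passed. The block gave 384 between knockdown and knockout cells and 116 for the difference between cells and EVs. Near 0, signs depended on the setting. miR-146b-5p changed by 0.083 with DESeq2's size factors, by 0.082 with DESeq2 and by −0.083 to 0.020 with 1 library left out. miR-17-5p changed by −0.0097 with no filter, and miR-92a-3p by −0.19 with no filter and by −0.018 to 0.16 with 1 library left out. The seed sums changed with DESeq2's size factors by 0.034 (ACCCGUA), 0.012 (AUUGCAC) and 0.013 (UCACAUU). With 1 library left out they ranged from −0.018 to 0.066 (ACCCGUA), −0.11 to 0.0065 (AAAGUGC), −0.10 to 0.083 (AUUGCAC) and −0.033 to 0.039 (UCACAUU). The seed sums were added after the data were seen. The cause of these shifts was not tested. The knockdown libraries are the shallower ones, which limits what can be said of miRNAs with few counts there.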

Other observations

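At the low end, 22 miRNAs had no count in control cells and more than 3 counts in knockdown cells. The reverse held for 115, with no count in knockdown cells and more than 3 in control cells. The 22 and the 115 cannot be compared directly, because the depths differ. Control cells held 22907167 counts in all and knockdown cells 6300088. A level of 3 counts was thus 0.131 CPM in control cells and 0.476 CPM in knockdown cells. The part of depth in the gap between the 22 and the 115 was not tested. miR-5580-3p is among the 115, with no count in knockdown cells and 21 and 23 counts in control cells. It was chosen after its values were seen.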
